A study of Arabidopsis thaliana with 3 samples.

Results

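The tetraspanin genes of Arabidopsis thaliana were examined in whole Col-0 plants, the standard laboratory accession, after flooding with the synthetic auxin 2,4-dichlorophenoxyacetic acid (2,4-D) or with distilled water. Members were chosen by the array's gene names: a probe set, the group of probes that reads 1 transcript, was taken when its single gene symbol was TET followed by a number, up to the 10 with the highest mean signal over the 3 arrays. The naming table held 15 such probe sets, so 10 were members, out of 22746 probe sets in all. The mean signal was therefore used in the choice and is given only as a description. Mean signal was 9.54 for TET13, the dimmest member, and 8.64 for TET14, the brightest TET probe set outside. The other tetraspanin loci of the RefSeq table, TRN2 (also called TET1) and TET17, had no probe set with their name alone and were not analysed here.

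The 2,4-D group had 2 arrays and received 1 mM of the compound for 1 hour, and the water group had 1 array, also treated for 1 hour. All plants were of the same accession, were grown on plates with MS medium and sucrose, and were taken whole, so shoot and root RNA were mixed. Whether separate plates of plants gave the 2,4-D samples is not stated in the labels. All p-values depend on the spread of these 2 arrays, possibly a technical one, and no second water array stands behind them. The standard error (SE) given for a gene came from probe sets of like signal, not from its own spread.

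Tetraspanins are small proteins that cross the membrane several times, with a short and a long loop on the outer side. They gather with one another and with partner proteins into patches of the plasma membrane, and in animal cells they are used as markers of exosomes, the vesicles that cells release from multivesicular endosomes. In Arabidopsis TET8 is likewise used to mark vesicles outside the cell. Other members act in growth, as TET5 and TET6 do together in leaves and roots and TET13 does in the root.

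Of the 10 tetraspanin members, 7 were bright enough to be tested, and TET8, TET2, TET7 and TET3 rose with 2,4-D. The fitted rise was 2.89-fold for TET2, 2.51-fold for TET8, 1.68-fold for TET7 and 1.55-fold for TET3. TET10, TET5 and TET6 did not pass the test. Probe sets were tested with limma when their mean signal was at least 24.8, and p-values were adjusted by Benjamini-Hochberg over all 13648 of them, at a threshold of 0.05. The 4 members called higher stand beside 10.8% of all tested probe sets called higher. Among them TET2 was tested only on account of its 2,4-D signals, since its water signal of 23.6 was below the minimum. The count of members called lower was 0, against 10.5% of all tested probe sets, with 1 member lower (TET10) at an unadjusted p under 0.05. Without limma's intensity trend 2 members were called higher, TET8 and TET2, beside 834 of all 13648 tested probe sets.

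**Figure D1:**
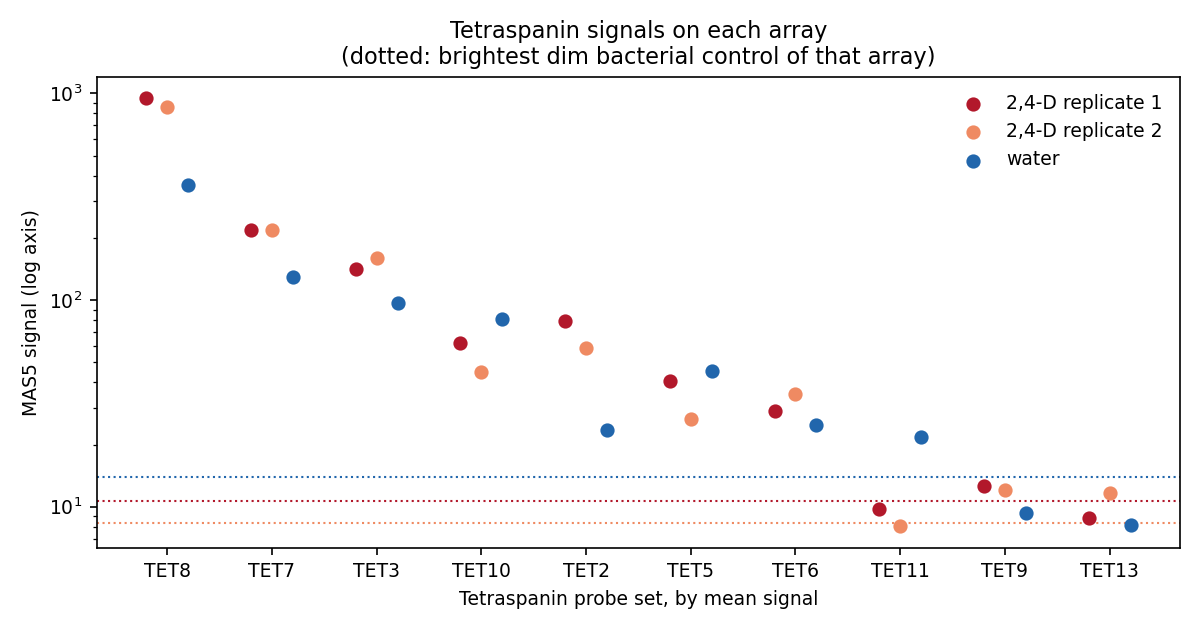
MAS5 signal (log axis) of the 10 tetraspanin probe sets on 2,4-D replicate 1, 2,4-D replicate 2 and the water array, ordered by mean signal; each point is 1 array and the dotted lines mark the brightest dim bacterial control of each array. TET8, TET7, TET3 and TET2 lie higher on both 2,4-D arrays than on the water array, and TET11, TET9 and TET13 lie around the control lines.

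TET8 (AT2G23810), the vesicle marker, had the highest mean signal of the members. Its signal was 947 and 861 on the 2,4-D arrays, against 360 on the water array. Both 2,4-D arrays lay above the water array by 2.63-fold and 2.39-fold, and the 2,4-D arrays differed from each other by 0.14 on the log2 scale. The log2 change, 2,4-D minus water, was 1.33 ± 0.20 (SE, n = 2 against 1), with a limma adjusted p of 3.3e-09. This rise was higher than the change of 97.5% of the tested probe sets. It passed the threshold under all 7 alternatives in which the fit was repeated on the 3 arrays, with adjusted p between 4.68e-11 and 0.00996.

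TET2 (AT2G19580) had a signal of 79.2 and 58.4 with 2,4-D, against 23.6 with water. Its water signal was below the testing minimum, so that it was tested on account of its 2,4-D signals. All 3 signals were above the brightest dim bacterial control of their array, which was 10.7 and 8.37 on the 2,4-D arrays and 13.9 on the water array. These controls are transcripts that were not bright on any array and serve here as a mark of background. The log2 change of TET2 was 1.53 ± 0.33 (SE, n = 2 against 1), with a limma adjusted p of 7.82e-05. In a fit of all probe sets, without the signal minimum, its limma adjusted p was weaker, at 0.0144. The 2,4-D arrays differed by 0.44 on the log2 scale, more than for TET8, and neither overlapped the water array. TET2 and TET8 were the members at least 2-fold higher on both 2,4-D arrays, which held for 3.8% of all tested probe sets. Of the 7 tested members 0 were at least 2-fold lower on both 2,4-D arrays, beside 3.14% of all tested probe sets.

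TET7 (AT4G28050) gave nearly the same signal on both 2,4-D arrays, 218 and 219, against 130 with water. The log2 change was 0.75 ± 0.20 (SE, n = 2 against 1), with a limma adjusted p of 0.00262. TET3 (AT3G45600), whose protein has been found at plasmodesmata, the channels between plant cells, had 142 and 160 with 2,4-D, against 97.3 with water. Its log2 change was 0.63 ± 0.22, with a limma adjusted p of 0.026. Both genes were higher on each 2,4-D array than on the water array by less than 2-fold. Both calls ended without the intensity trend (adjusted p = 0.0729 for TET7 and 0.123 for TET3), and that of TET3 also ended when all probe sets were tested (adjusted p = 0.0747).

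**Figure D2:**
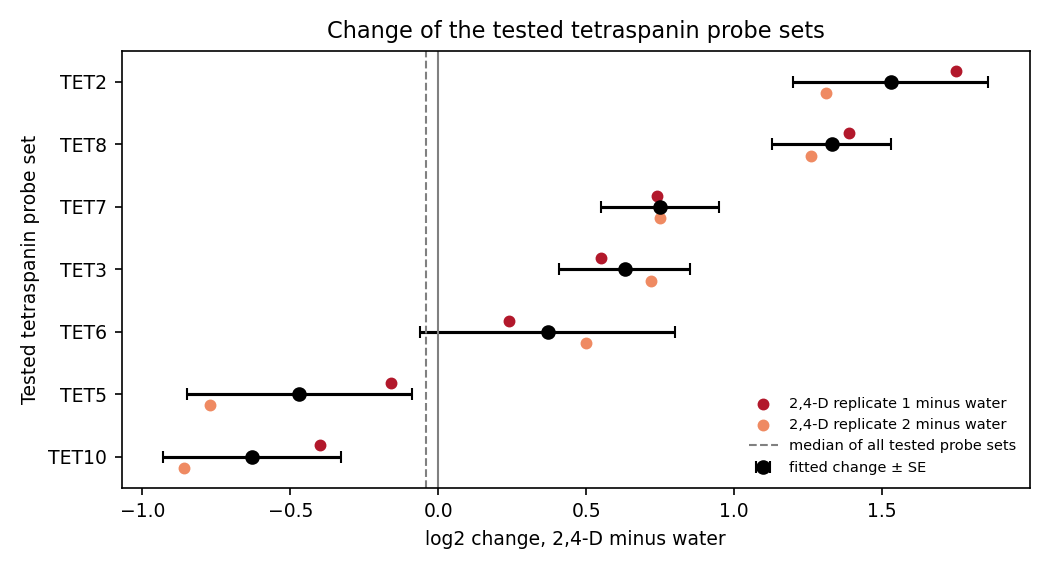
Log2 change, 2,4-D minus water, of the 7 tested tetraspanin probe sets. Black points with bars are the fitted change ± SE, coloured points are each 2,4-D array minus the water array, and the dashed line is the median of all tested probe sets (-0.04); TET2, TET8, TET7 and TET3 lie to the right with both arrays, and TET5 and TET10 to the left.

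TET10 (AT1G63260) had signals of 61.7 and 44.8 with 2,4-D, against 81.4 with water. Both 2,4-D arrays were below the water array, and they differed from each other by 0.46 on the log2 scale. The SE of each gene came from the variance trend over signal, so this difference by itself did not set it. The log2 change was -0.63 ± 0.30 (limma adjusted p = 0.114), with a 95% interval of the difference from -1.21 to -0.05. That interval is not adjusted for the number of probe sets tested.

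TET5 (AT4G23410) and TET6 (AT3G12090), the pair that acts together in limiting leaf and root growth, lay on opposite sides of the water array. TET5 had 40.5 and 26.6 with 2,4-D, against 45.3 with water, a log2 change of -0.47 ± 0.38 (limma adjusted p = 0.421). TET6 had 29.2 and 35.2 with 2,4-D, against 24.8 with water, a log2 change of 0.37 ± 0.43 (limma adjusted p = 0.596). The 95% intervals, from -1.21 to 0.28 for TET5 and from -0.47 to 1.21 for TET6, include both no change and a change of the size seen for TET7. The difference between the changes of the pair was not tested.

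The remaining members, TET11, TET9 and TET13, were too dim to be tested. TET11 (AT1G18520), known for its expression in sperm cells, had 9.75 and 8.03 with 2,4-D, against 21.7 with water. It was above the brightest dim control on the water array and below it on both 2,4-D arrays. With the brightest dim control of each 2,4-D array in place of the dimmer signal there, TET11 was 2.28-fold lower with 2,4-D. The control of the water array was higher than these, at 13.9, and only 1 water array was available. In a fit of all probe sets the limma adjusted p of TET11 was 0.367. TET9 (AT4G30430), found with TET8 on vesicles outside the cell, had 12.6 and 12.0 with 2,4-D, against 9.31 with water. TET13 (AT2G03840), which acts in primary and lateral root growth, had 8.85 and 11.6 with 2,4-D, against 8.19 with water. Of these signals, those of TET9 on both 2,4-D arrays and of TET13 on 2,4-D replicate 2 exceeded the brightest dim control of their array. In the fit of all probe sets the limma adjusted p was 0.817 for TET9 and 0.877 for TET13.

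The 5 TET probe sets outside the members were dimmer still. TET14 had 4.45 and 8.61 with 2,4-D, against 12.9 with water, and TET4 had 12.8 and 3.53 with 2,4-D, against 5.74 with water. TET12 had 1.42 and 1.86 with 2,4-D, against 3.65 with water. TET16 had 0.855 and 1.27 with 2,4-D, against 2.06 with water, and TET15 had 1.79 and 0.537 with 2,4-D, against 1.09 with water. TET12, TET16 and TET15 were at or below the brightest dim control on all 3 arrays. TET14 was above it on 2,4-D replicate 2 and TET4 on 2,4-D replicate 1. TET16 is the next protein-coding gene to TET11 in the RefSeq table, and background on all arrays gives no comparison between the neighbours.

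Among all 10 members, 7 were higher on both 2,4-D arrays than on the water array and 3 were lower on both. The 15 TET probe sets together held 7 that were higher on both and 6 that were lower on both. Over all 22746 probe sets 32.5% were higher on both and 46.3% lower on both. Among the 7 tested members 5 were higher on both, beside 38.3% of all tested probe sets, and 2 were lower on both, beside 44%. The median log2 change was 0.38 over the 10 members and 0.63 over the 7 tested, against -0.04 over all tested probe sets. Dim probe sets with raised 2,4-D signals passed the signal minimum more easily, since the mean holds 2 such arrays and 1 of water. The same mean chose the 10 members, so the counts and medians over members, tested or not, describe them only.

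Likeness of pattern was also compared among the members. After each gene's mean log2 signal was subtracted, the distance between patterns over the 3 arrays was 0.149 between TET7 and TET3, 0.169 between TET10 and TET5 and 0.272 between TET8 and TET2. TET6 and TET13 were nearer still (0.0999), though TET13 was dim. TET3 and TET6 (0.224), TET6 and TET9 (0.241) and TET3 and TET9 (0.255) were each closer than TET8 and TET2, so the members did not divide into pairs. TET8 and TET7 were 0.483 apart. These distances rest on 3 arrays and are descriptions.

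Far more probe sets were compared outside the family than within it, and some came nearer to each tested member than its own relatives did. This describes the patterns and is no trait of the family. For TET8 the nearest single named genes were AT1G75800 (distance 0.0254), AT1G75280 (0.0319) and AT5G24260 (0.0467). AT1G75280, the brightest of these 3, had 690 and 624 with 2,4-D, against 255 with water. For TET2 they were AT2G34140 (0.0178), AT4G19610 (0.051) and AT3G43240 (0.0681). Within 0.1 lay 6 tested probe sets for TET2 and 34 for TET8, against 196 for TET7 and 227 for TET3. The patterns of TET7 and TET3 were thus shared with 1.44% and 1.66% of the tested probe sets. For TET6, TET10 and TET5 the counts were 318, 141 and 93. The distance was not scaled to the size of the change, so these counts reflect size as well as shape. In size the changes of TET2 and TET8 exceeded those of 97.3% and 95.7% of the tested probe sets.

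Nearest to TET7 were AT5G08400, AT3G56880 and AT3G03305, at distances of 0.00224 to 0.00826. Nearest to TET3 were AT4G13530, AT3G56330 and AT1G55890, at 0.0066 to 0.0193. For TET10 they were SWEET17, a fructose transporter gene of the vacuole, AT4G00520 and ILA, at 0.00237 to 0.0128. SWEET17 had 276 and 200 with 2,4-D, against 363 with water, and like TET10 it was lower on both 2,4-D arrays. For TET5 they were AT5G58150, AT5G05140 and AT2G34050, at 0.0177 to 0.0291, and for TET6 AT3G20270, AT1G49380 and AT1G67330, at 0.00669 to 0.0152.

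Genes of the routes by which membrane proteins and vesicles reach the cell surface were set beside the tetraspanins. The exocyst is a complex that tethers secretory vesicles to the plasma membrane. Of 32 listed genes of exocytosis 6 were named and tested, all of them exocyst subunits. Of these 0 were called by limma in either direction, with 0 higher and 1 lower at an unadjusted p under 0.05. Among all tested probe sets 10.8% were called higher and 10.5% lower, so that 0 of 6 is near the background. EXO84B came closest to the threshold, with 85.4 and 60.3 with 2,4-D, against 113 with water (log2 change -0.65 ± 0.26, limma adjusted p = 0.0533). The log2 change was 0.42 ± 0.47 for SEC15A, -0.32 ± 0.21 for SEC5A and -0.25 ± 0.21 for SEC10. The median over the 6 subunits was -0.22.

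The second group was that of endosomal sorting, in which ESCRT proteins bud vesicles into multivesicular endosomes. Of 21 listed genes 6 were named and tested, and 0 were called by limma in either direction. This is again near the background of 10.8% called higher and 10.5% called lower. At an unadjusted p under 0.05, 1 was higher and 1 lower. VPS20.1, an ESCRT-III subunit gene, had 50.7 and 44.3 with 2,4-D, against 26.3 with water (log2 change 0.85 ± 0.37, limma adjusted p = 0.085). It was called higher after quantile normalization and after scaling the arrays to 1 median. SNF7.2, another ESCRT-III subunit gene, had 80.6 and 104 with 2,4-D, against 138 with water (log2 change -0.59 ± 0.24, limma adjusted p = 0.0568). The log2 change was 0.50 ± 0.31 for SNF7.1 and -0.42 ± 0.23 for VPS24.1, and the median over the 6 genes was 0.05. None of the 16 listed genes of plasma membrane domains and none of the 17 of plasmodesmata had a probe set with a single name.

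**Figure D3:**
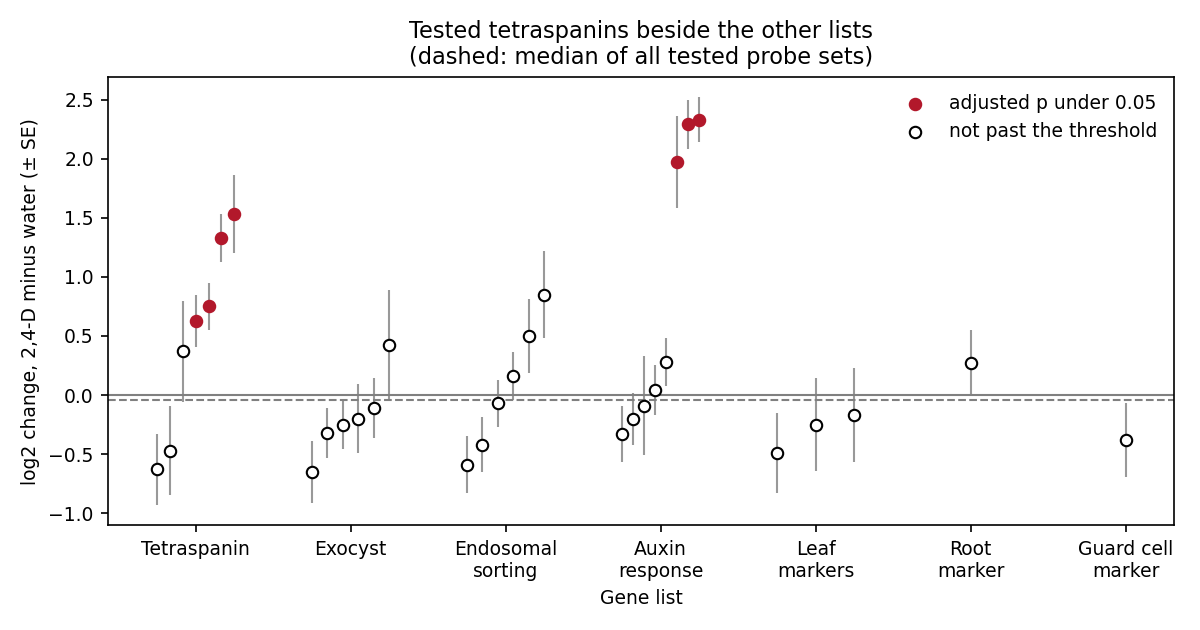
Log2 change, 2,4-D minus water, with bars of ± SE, of each tested gene of the tetraspanin, exocyst, endosomal sorting, auxin response and marker lists. Filled points passed an adjusted p of 0.05: 4 tetraspanins and 3 auxin response genes did, and 0 of the 6 exocyst and 0 of the 6 endosomal genes, beside 10.8% of all tested probe sets higher and 10.5% lower, so that 0 of 6 is near the background; the dashed line is the median of all tested probe sets (-0.04).

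Of the 10 auxin response genes listed 8 were tested and 3 were called higher, beside 10.8% of all tested probe sets. They were GH3.3, HAT2 and IAA30, whose log2 changes of 2.33, 2.29 and 1.97 were larger than that of TET2. IAA30 had 53.3 and 55.7 with 2,4-D, against 13.9 with water, a signal near the brightest dim control of that array. Its water signal was below the testing minimum, so it was tested on account of its 2,4-D signals, and the size of its change is uncertain. This list was chosen with earlier results of these data known, so its count is a description only. The other 5 did not pass, and their changes lay between that of IAA29 (-0.33 ± 0.24) and that of GH3.5 (0.28 ± 0.20). GH3.1 and LBD29 were too dim to be tested and were higher on both 2,4-D arrays. GH3.1 had 12.7 and 16.3 with 2,4-D, against 3.21 with water, and LBD29 had 14.1 and 12.5, against 5.71. Both water signals were below the brightest dim control of the water array (13.9), so the size of these differences is not known.

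In RNA of whole plants, fewer cells of a type and less RNA per cell cannot be told apart. The leaf markers and the root marker BGLU23 were well above the dim controls on every array. Of 10 leaf markers 3 were named and tested (LHCB4.1, LHCB4.2 and RCA), with a summed signal of 13300 and 20400 with 2,4-D, against 20000 with water, and 0 were called. Of 13 root markers 3 were named, with a summed signal of 3010 and 2460 with 2,4-D, against 2320 with water, nearly all of it from BGLU23, and 0 of the 1 tested was called. The other named root markers, the root-hair genes EXPA18 and EXPA7, had mean signals below the testing minimum, and both were lower on each 2,4-D array than on the water array. EXPA18 had 7.98 and 3.55 with 2,4-D, below the brightest dim control, against 43.8 with water. EXPA7 had 15.1 and 15.3 with 2,4-D, against 37 with water, all above that control. The guard cell gene FAMA was the single named marker of epidermis and guard cells and had 54.6 and 44.6 with 2,4-D, against 64.2 with water (log2 change -0.38 ± 0.31). At an unadjusted p under 0.05 the count was also 0 for the leaf, root and guard cell markers. With 10.8% of all tested probe sets called higher and 10.5% lower, no call among so few markers is near the background. None of the 8 vascular markers was named. The part of tissue makeup in the tetraspanin changes was not tested.

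The water array also stood apart from the 2,4-D arrays in its hybridisation controls. The bioB control had 102 and 79.8 on the 2,4-D arrays, against 228 on the water array, and bioC had 303 and 215, against 621. The difference was smaller for bioD, with 871 and 735, against 1060. The part of this array difference in the tetraspanin changes was not tested, and with 1 water array it cannot be told apart from the treatment. When every array was brought to 1 common median, the whole table shifted, with a median change of 0.07 over the tested probe sets in place of -0.04. Relative to the median of all tested probe sets, the change was 1.37 for TET8, 1.57 for TET2, 0.79 for TET7 and 0.67 for TET3. One factor for each array cannot alter these relative changes. After quantile normalization, which can, they were 1.29, 1.74, 0.75 and 0.66.

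**Figure D4:**
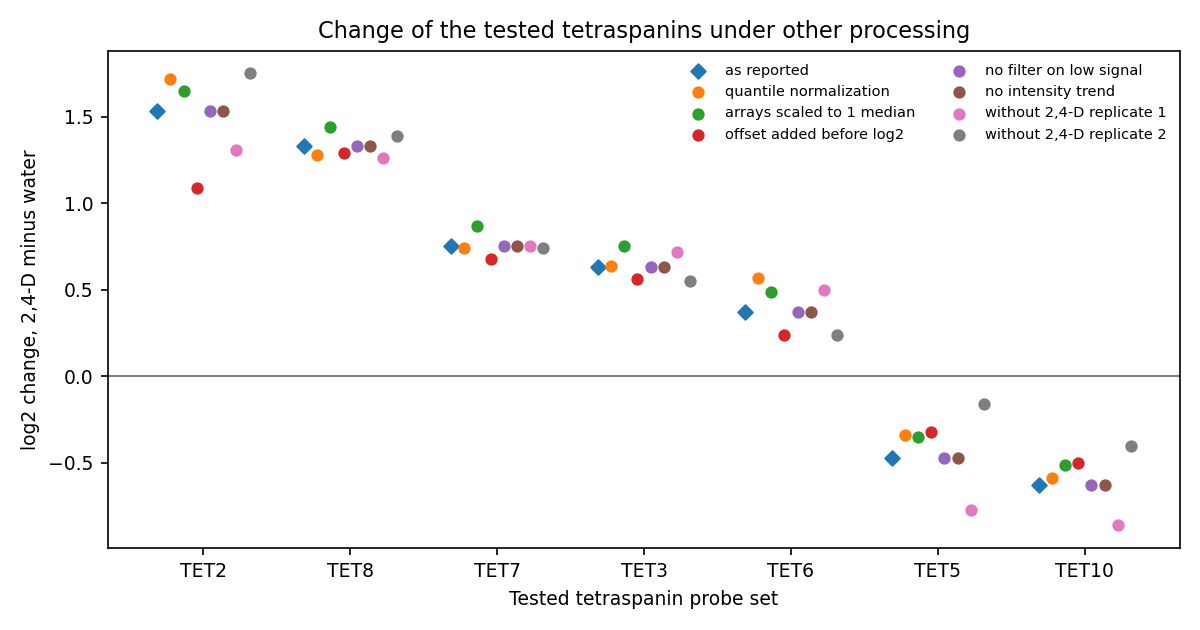
Log2 change, 2,4-D minus water, of the 7 tested tetraspanin probe sets as reported (diamonds) and under the other settings (circles) of quantile normalization, scaling to 1 median, an offset, no filter, no intensity trend and each 2,4-D array left out; the stricter filter and the floor on dim signals are not drawn. No gene crosses 0, and the changes of TET8 span 1.26 to 1.44 and those of TET2 span 1.09 to 1.75.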

How the data were processed

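Biotin-labelled total RNA was read on Affymetrix ATH1 arrays, per the labels. The deposited values are linear signal intensities, which the submitters' processing notes credit to MAS5. MAS5 combines the probes of a probe set and scales each array. Its version, the scaling target and the genome build were not given in the sources used here, and no coordinates are reported. Of 22810 probe sets, 64 were controls and left out of the tests. Median signal was 38.7 and 38.5 on the 2,4-D arrays and 41.9 on the water array, and the number of arrays limits the precision.

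Names came from the platform's probe-to-gene table. Of 22746 probe sets, 13513 had 1 symbol, 503 had several and were not named, and 8730 were not listed. All 15 TET symbols matched the RefSeq table of assembly TAIR10.1. No member's probe set carries the suffix that marks probes shared between genes.

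Signals were taken to log2 with no offset and fitted by lmFit, then eBayes with a variance trend over intensity (limma 3.58.1, R 4.3.3). Tested probe sets had a mean signal at or above the 40th percentile. The prior degrees of freedom were infinite, so each variance came from the trend over signal. Background was judged by 27 bacterial control probe sets. Scripts were tested on simulated data. The members, lists and tests were chosen with earlier results of these data known. Named were every TET probe set, up to 4 tested genes of each list with the largest change and any called, and the 3 named probe sets nearest in pattern to each tested member. The listed symbol FDH was dropped, since the table gives it to another gene. Alternatives covered scaling, offset, filter, trend, a floor on dim signals and each 2,4-D array left out.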

Additional observations from a re-analysis of the deposited data

Results flagged for a closer look

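TET9, a member too dim to be tested, was above the brightest dim bacterial control on both 2,4-D arrays and below it on the water array. The geometric mean of its 2,4-D signals was 12.3, against a water signal of 9.31 and a water control of 13.9. No fold bound can be given, since the 2,4-D signals did not exceed the control of the water array. The groups of 2 and 1 arrays were too small to look for a deviating array.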

How the results depend on the processing

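No paired analysis was possible because the groups share only 1 replicate number. Over the tetraspanin members and the alternatives run, no change turned its sign, and 3 calls were lost: TET7 without the intensity trend, and TET3 without the trend and without the filter. Without the trend 2 members were called higher in place of 4. At least 2-fold higher on both 2,4-D arrays was 1 member with an offset of 16 before log2 (TET8) and 1 with the stricter filter, which left TET2 untested, in place of 2. Without a filter 1 member, TET11, was at least 2-fold lower in place of 0. Over all probe sets, 964 were called higher and 710 lower without a filter, and 834 and 839 without the trend, against 1472 and 1434. Scaling to 1 median gave 2027 higher and 995 lower, so that 67.1% of calls were higher against 50.7%. Of the exocytosis and endosomal genes, 1 was called higher after quantile normalization and 1 after scaling to 1 median, VPS20.1 in both. Small changes turned sign with scaling to 1 median for SEC6 (0.01) and VPS2.1 (0.05). With each 2,4-D array left out in turn, the change ran from -0.29 to 0.06 for SEC6 and from -0.02 to 1.02 for SNF7.1. The causes were not tested. A single array against another has no test, so no calls were made with a 2,4-D array left out.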
